A study of Homo sapiens with 32 samples.

Results

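The sites described here are regions of the AsPC1 genome at which an antibody specific to P1 isoforms of HNF4α gave a peak after repression of the P2 promoter and no peak in control cells. AsPC1 is an established human pancreatic ductal adenocarcinoma line. Peaks of 4 chromatin immunoprecipitation sequencing (ChIP-seq) libraries were merged wherever they overlapped by at least 1 bp. A region was classed as gained when it held a peak in both libraries of the P2-repressed cells (sgP2) and in neither library of the cells with a control guide (sgNC). Of 6274 merged regions, 2259 were gained, and 191 were in all 4 lists.

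The study has 32 libraries, of which 18 have a peak list, in 9 groups of 2. In AsPC1, CRISPR interference (CRISPRi), which blocks transcription at a promoter chosen by a guide RNA, was aimed at P2 (genotype sgP2), at P1 (sgP1) or used a control guide (sgNC). The P1-specific antibody was used in sgP2 and sgNC, and an antibody to all HNF4α isoforms (pan-HNF4α) in sgNC, sgP1 and sgP2. Other lists, made with the pan-HNF4α antibody, come from the pancreatic cancer lines Panc10.05 and BxPC3, in which doxycycline induced the isoform P1-α2 or P2-α8. The doxycycline dose in Panc10.05 was 25 ng/mL with P1-α2 but 12.5 ng/mL with P2-α8, and in BxPC3 it was 500 ng/mL with either. Whether the CRISPRi lines were clones or pools, and whether replicates came from separate cultures, is not given in the sources used here, so p-values measure the spread between these libraries, which may be technical. The lists hold no expression values, so the cell line's markers and the loss of P2 transcripts could not be checked here.

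HNF4α is a nuclear receptor of liver, gut, kidney and pancreas that binds DNA as a homodimer. Its gene, HNF4A, has a pair of promoters, and P1 and P2 transcripts give proteins with the same DNA-binding domain and different N-termini. In the intestine and liver the factor is known for its sites at genes of lipid, bile acid and drug metabolism and of the enterocyte brush border. A common form of its binding site holds the letters CAAAGTCCA.

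RefSeq promoter windows (assembly GRCh38.p14), which run from 250 bases before to 50 after a gene start, were searched for that motif on either strand. The stretches below lie under gained regions. They are the 4 of highest P1-antibody rank that hold the whole motif before the start, the stretch of MUC13 as a member of the brush border list, and that of CLRN3, the gene of a top-ranked gained region, which matches a form with a pair of free bases (CAAAGNNCA). Each reads 5′ to 3′ on the gene's strand, with the motif in capitals in whichever orientation it was found.

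CLRN3, chr10:127892942-127893030, minus strand: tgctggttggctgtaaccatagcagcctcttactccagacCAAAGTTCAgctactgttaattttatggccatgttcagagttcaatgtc
MISP, chr19:750960-751048, plus strand: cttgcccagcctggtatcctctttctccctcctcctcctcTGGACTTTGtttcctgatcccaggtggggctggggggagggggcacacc
RGS12, chr4:3385074-3385155, plus strand: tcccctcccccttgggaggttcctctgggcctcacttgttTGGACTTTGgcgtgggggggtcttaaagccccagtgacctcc
HMGCS1, chr5:43313182-43313269, minus strand: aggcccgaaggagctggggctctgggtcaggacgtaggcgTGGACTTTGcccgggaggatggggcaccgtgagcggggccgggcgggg
ABLIM1, chr10:114685004-114685063, minus strand: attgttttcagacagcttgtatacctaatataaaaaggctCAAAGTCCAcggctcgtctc
MUC13, chr3:124934754-124934842, minus strand: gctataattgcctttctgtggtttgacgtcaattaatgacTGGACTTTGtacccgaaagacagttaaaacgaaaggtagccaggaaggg

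In each of these 6 stretches the motif lay close to the summit of the P1-antibody peak. The distance from the middle of the motif to the summit was 17 bp at CLRN3, 36 bp at MISP, 10 bp at RGS12, 6 bp at HMGCS1, 5 bp at ABLIM1 and 41 bp at MUC13. MISP encodes an actin-bundling protein of the mitotic spindle, HMGCS1 the cytosolic HMG-CoA synthase of the cholesterol pathway, and MUC13 a membrane-bound mucin of the gut epithelium. RGS12 encodes a regulator of G protein signalling and ABLIM1 an actin-binding LIM protein. The ranks of these sites differed: the CLRN3 peak lay at percentiles 96.1 and 95.7 of sgP2 replicates 1 and 2 (100 being the strongest peak of a list by fold enrichment), and the MUC13 peak at 46.4 and 52.6.

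The peak lists of the P1-specific antibody held 5200 and 3916 peaks in sgP2 and 697 and 260 in sgNC. The shorter sgP2 list was still longer than either sgNC list. The log2 number of peaks was 12.14 ± 0.29 (SD, n = 2) in sgP2 and 8.73 ± 1.01 in sgNC. The difference of 3.41 was above the pooled SD of the replicates, 0.74 (two-sided exact permutation p = 0.33, the smallest that 2 against 2 libraries allow, and 0.5 after Benjamini-Hochberg adjustment over 6 tests). The read depth of the libraries is unknown. The part of depth or of the yield of the immunoprecipitation in the length of a list was not tested.

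The gained regions made up 36.0% of the merged regions and those in all 4 lists 3.04%. A further 450 regions were in both sgP2 lists and in 1 sgNC list, 3260 were in 1 sgP2 list and in no sgNC list, and 4 were in both sgNC lists alone. Absence from a list means that no peak passed the authors' threshold, not that no protein was bound. When each of the 4 lists was reduced to its 260 strongest peaks by fold enrichment, the length of the shortest, 31 regions were gained, 87 were in all 4 lists and 18 were in both sgNC lists alone. At a −log10 q of at least 20 in every list, 832 regions were gained. Without sgP2 replicate 2 the gained regions numbered 4535, and without sgNC replicate 2 the regions in all lists numbered 601. Leaving out a list also drops its condition from the class, so these counts tend to rise by construction. The count of gained regions therefore changes with the length of the lists compared and with the rule applied.

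Gained regions were spread over the sgP2 ranking, with mean percentiles from 0.262 to 99.2. Their medians lay nearer its middle than those of the regions that the control also had, which mostly ranked higher. In sgP2 the gained regions had a median percentile of 62.5 in replicate 1 and 53.9 in replicate 2. Regions in all 4 lists had 96.1 and 95.8, and those with a peak in 1 sgNC list had 85.2 and 82.1. The median fold enrichment in the authors' lists was 8.27 and 7.85 at gained regions and 20.2 and 19.4 at regions in all 4. The median width was 419 bp for gained regions and 674 bp for those in all 4. These ranks come from the lists that chose the regions and are given as a description. The weakest gained regions lay just above the calling threshold, with a lowest −log10 q of 2.13 in replicate 1 and 2.01 in replicate 2, where each list starts just above 2.

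Along the 2900 regions found in both sgP2 lists, the share that was gained mostly went up as the P1-antibody rank went down. In the strongest decile, 68 of 290 regions were gained (23.4%), 96 were in 1 sgNC list and 126 in both (43.4%). The gained share was 53.1% in the second decile, 72.8% in the third, 87.9% in the fifth and 96.2% in the ninth. It was lower in the seventh (89.0%) than in the sixth (90.0%), and it fell to 91.7% in the tenth and weakest. Of the strongest decile, 74.5% had a peak in sgNC replicate 1 and 45.5% in sgNC replicate 2. Of the ninth it was 3.79% and 0%, and of the tenth 7.59% and 4.14%. Control cells therefore held a P1-antibody peak at most of the strongest sites of the P2-repressed cells, and the gained class was mostly made of the sites below them.

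**Figure D1:**
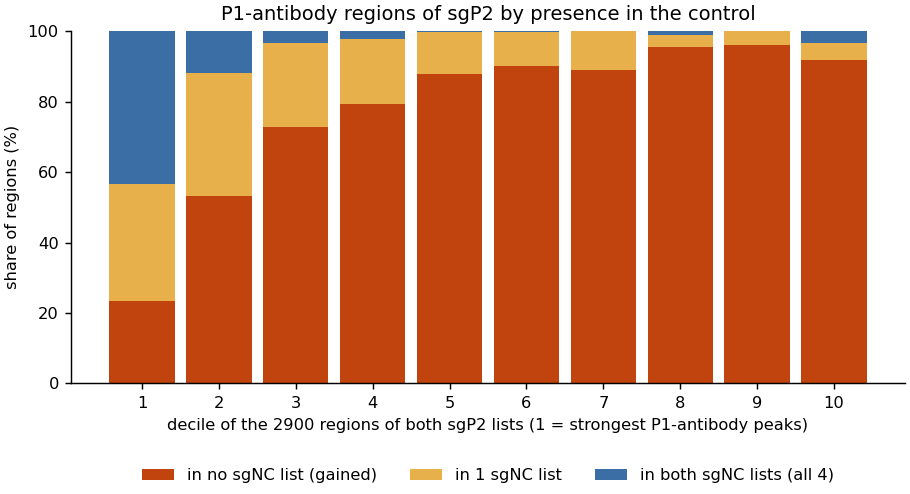
Each bar is a decile of 290 regions found in both sgP2 P1-antibody lists, ordered by mean percentile from the strongest (1) to the weakest (10), and its colours give the share of regions (%) with a peak in no, 1 or both sgNC lists. The gained share goes from 23.4% in decile 1 to 96.2% in decile 9 and is 91.7% in decile 10.

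The gained region of highest rank lay 157 bp before the start of ABAT, which encodes the aminotransferase that breaks down GABA (chr16:8673992-8674768). It ranked at percentiles 99.3 and 99 of the sgP2 lists, with a fold enrichment of 33.5 and 29.6. Next came a region inside CD82, a tetraspanin of the cell surface (chr11:44601272-44601808), at 98.5 and 98.7. The region inside TPMT, whose enzyme methylates thiopurine drugs (chr6:18147033-18147668), ranked at 98.3 and 97.7. That inside PDE4D, a phosphodiesterase of cAMP (chr5:59756306-59756952), ranked at 99 and 96.5. A region inside PTP4A1, a tyrosine phosphatase (chr6:63565473-63566065), ranked at 98.3 and 97.0.

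The other 7 of the 12 highest gained regions had mean percentiles between 95.9 and 97.0. They lay inside SLC35D2, a nucleotide sugar transporter of the Golgi (chr9:96339303-96340033), HECW2, a ubiquitin ligase (chr2:196276412-196276786), and AHDC1 (chr1:27549235-27550054). One lay 384 bp before the start of GDI2, which keeps Rab GTPases in their GDP form (chr10:5813566-5813968), and one 62 bp before that of CLRN3 (chr10:127892731-127893290). The last ones lay near LHX1, a LIM homeobox factor (chr17:36935998-36936431), and 43.0 kb from PLPP3, a lipid phosphatase (chr1:56451392-56451969). These 12 regions also ranked high with the pan-HNF4α antibody in every AsPC1 library. The ABAT region was at 99.6 and 99.8 in sgNC, 99.6 and 99.3 in sgP1 and 99.7 and 99.9 in sgP2. The CD82 region was at 99.1 and 98.4, 97.9 and 99.6, and 99.5 and 99.8 in the same order. The lowest of the 72 values was that of AHDC1 in sgNC replicate 2, at 91.3.

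Among gained regions within 1 kb of a listed gene start, 5 of the 6 of highest rank lay at the starts of ABAT, GDI2, CLRN3, CCDC107 and RBKS. The other had its summit inside PKP4, a plakophilin-family protein of cell junctions (chr2:158458021-158458503), where the start 83 bp away was that of LOC124907900, and it ranked at 97.9 and 91.9 in sgP2. That at RBKS, the ribokinase gene (chr2:27889984-27890604), had its summit 2 bp after the start and ranked at 94.8 and 93.1. That at CCDC107 (chr9:35657678-35658111) lay 395 bp before the start and ranked at 95.8 and 92.4.

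The strongest regions shared by all 4 lists give the scale of P1-antibody peaks already present in the control. The region nearest PAOX, which encodes polyamine oxidase (chr10:133378096-133379141), had a fold enrichment of 99.6 and 67.9 in sgP2 and 40.3 and 29.6 in sgNC. That inside NDST1, a heparan sulfate sulfotransferase (chr5:150542847-150543575), had 90.6 and 45.8 in sgP2 and 40.7 and 22.5 in sgNC. That near NRIP1, a nuclear receptor corepressor (chr21:15140264-15141063), had 74.1 and 60.0 in sgP2 and 45.8 and 15.2 in sgNC. That near LENG8 (chr19:54444643-54445378) had 59.7 and 42.0 in sgP2 and 23.8 and 18.9 in sgNC. At these 4 sites each sgP2 value was above each sgNC value. At the other, near DNAAF5 (chr7:794610-795479), the groups overlapped, with 66.3 and 36.4 in sgP2 and 83.3 and 42.4 in sgNC. The DNAAF5 region ranked first of the 5 by mean percentile over the 4 lists, and it was the strongest peak of both sgNC lists (percentile 100). Fold enrichment depends on the depth of each library and its input, so these values rank sites within a list and are not a measure of change between lists.

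The 4 regions of sgNC alone lay far from genes and at the bottom of the control lists. The region nearest EMB, 752 kb away (chr5:49643786-49644074), was at percentiles 1.87 and 7.31, and that nearest WSB1 (chr17:26880974-26881543) at 1.15 and 6.92. The other two, both nearest LINC02798 on chromosome 1, were at 0.287 and 0.769 and at 0.143 and 0.385. Their fold enrichment was between 1.12 and 1.72. Some regions of all 4 lists were of this kind too, with a lowest fold enrichment of 1.16 in sgP2 replicate 1.

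At the targeted gene itself the P1-specific antibody gave no site shared by replicates. Within 100 kb of HNF4A, sgP2 replicate 1 had a single P1-antibody peak (chr20:44531976-44532283), 97.5 kb from the gene at percentile 64.0. Replicate 2 of sgP2 and both sgNC lists had none there. With the pan-HNF4α antibody, a peak with its summit 195 to 212 bp from the first HNF4A start was present in both sgNC and both sgP1 lists and in neither sgP2 list. Near the last HNF4A start, a pan-HNF4α peak was present in both sgNC lists (245 and 174 bp away, percentiles 43.0 and 14.5). It was also in sgP2 replicate 2 (66 bp away, percentile 6.09), and in neither sgP1 list nor sgP2 replicate 1.

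Nearly all gained P1 sites were HNF4α sites of the control cells. A pan-HNF4α peak overlapped 99.2% (exact Clopper-Pearson 95% interval 98.7 to 99.5) and 98.9% (98.4 to 99.3) of the 2259 gained regions in sgNC replicates 1 and 2. The share was 98.5% and 97.9% in sgP1 and 98.9% and 99.5% in sgP2. In all, 2233 gained regions (98.8%) were occupied in both control pan-HNF4α libraries, and 2193 (97.1%) in all 6 AsPC1 pan-HNF4α lists. These intervals cover counting error alone. Of the 3260 regions found in 1 sgP2 P1-antibody list and no sgNC list, between 65.7% and 78.1% had a pan-HNF4α peak in the 6 lists. The rule that chose the regions did not use the pan-HNF4α lists. It did choose by sgP2 against sgNC, so a pan-HNF4α difference between these genotypes is not independent of that choice.

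The share of gained regions with a pan-HNF4α peak was close to its ceiling in each AsPC1 library, so it leaves little room to show a difference between genotypes. The mean shares of sgP2 and sgNC were 99.2% ± 0.407 (SD, n = 2) and 99% ± 0.219, a difference of 0.133 percentage points with overlapping groups (two-sided exact permutation p = 1). With the 4 lists at an equal length of 12345 peaks the shares were 98.9% and 98.8% in sgP2 and 98.6% and 98.2% in sgNC, a difference of 0.465 with no overlap (exact permutation p = 0.33, the smallest possible). In sgP1 the mean share was 98.2% ± 0.407, a difference of -0.841 percentage points from sgNC, with both sgP1 values under both sgNC values (exact permutation p = 0.33). The sgP1 lists were shorter, and at an equal length of 11686 peaks the difference was -0.465, again without overlap. With the pan-HNF4α antibody, 0 gained regions had a peak in sgNC replicates 1 and 2 but none in sgP2, and 1 was the reverse. That region, inside LOC124901163 (chr5:1857876-1858399), ranked at percentiles 50.2 and 30.9 with the pan-HNF4α antibody in sgP2, at 46.0 and 42.3 with the P1-specific antibody, and at 44.9 in sgP1 replicate 1.

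The gained regions belonged to the upper part of the pan-HNF4α ranking in each genotype. Their median percentile was 91.7 and 86.7 in sgNC, 85.6 and 83.1 in sgP1, and 84.7 and 87.6 in sgP2. The mean medians of sgP2 (86.2 ± 2.06, SD, n = 2) and sgNC (89.2 ± 3.57) differed by -3.03, about the spread between replicates (2.91; exact permutation p = 0.667). With the pan-HNF4α lists of both groups at equal length the difference turned to 1.01, and both sgP2 medians (84.7 and 85.0) were above both sgNC medians (83.9 and 83.8; exact permutation p = 0.33). The gained regions were chosen by sgP2 against sgNC, and the part of that choice in this order was not tested. Regions in all 4 P1-antibody lists ranked higher than the gained regions, with medians from 97.6 to 99.3 over the 6 lists. As a comparison, 2815 regions were in all 6 AsPC1 pan-HNF4α lists and had no P1-antibody peak, and their medians ran from 46.5 to 72.3.

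Read the other way, the share of control pan-HNF4α sites that held a gained P1 region went up with their rank. Of 13688 regions found in both sgNC pan-HNF4α lists, 2211 overlapped a gained region, or 16.2%. None of the 226 in the lowest bin of 10 percentiles did, and none of the 619 in the next. The share was 3.01% between percentiles 50 and 60, 17.0% between 70 and 80, 42.3% between 80 and 90 and 57.0% in the top 10. Regions of all 4 P1-antibody lists overlapped 10.4% of the top bin and, apart from 2 in the lowest bin, none of the bins below it. Of the 1738 regions in the top bin, 97.9% overlapped a P1-antibody region of any class.

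**Figure D2:**
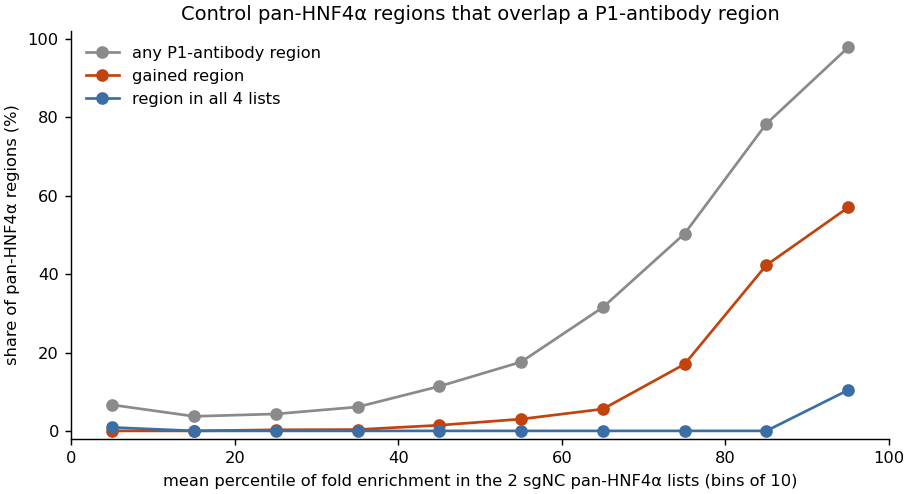
Lines give the share (%) of regions in both sgNC pan-HNF4α lists that overlap a P1-antibody region of any class, a gained region or a region in all 4 lists, by bins of 10 percentiles of their mean rank in the sgNC pan-HNF4α lists. The gained share reaches 57.0% in the top bin.

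Within the gained class the ranks of the antibodies went together. Across 2241 gained regions with a peak in the pan-HNF4α lists compared, the mean P1-antibody percentile in sgP2 and the mean pan-HNF4α percentile had a Spearman rho of 0.79 in sgP2 and 0.64 in sgNC. Between the sgP2 P1-antibody replicates rho was 0.56 over 2259 regions. These are descriptions across regions, which are not replicates, and peaks of the same genotype share their cells and local chromatin. With the gained regions in 4 equal groups by P1-antibody rank, in the strongest group the median pan-HNF4α percentile was 93.8 and 95.4 in the sgP2 lists and 96.0 and 93.8 in the sgNC lists. In the weakest group it was 70.7 and 74.7 in sgP2 and 85.7 and 76.5 in sgNC.

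A few gained regions had no pan-HNF4α peak. There were 6 without one in any of the 6 AsPC1 lists, and 17 without one in either sgNC list. The highest of the 6 lay 30.5 kb from LTBP1 (chr2:32916290-32916636), at percentiles 28.7 and 27.7 of the sgP2 P1-antibody lists. The next 3, nearest to TAF11L10 on chromosome 5, LOC124904970 on chromosome 20 and LOC102723475 on chromosome 21, ranked between 0.664 and 3.13. None of these 4 regions had a peak in the induced Panc10.05 or BxPC3 lists.

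Gained regions lay mostly away from listed gene starts. Of the 2259, 2146 lay on chromosomes for which RefSeq starts were listed. Of these, 262 summits (12.2%, exact 95% interval 10.9 to 13.7) lay within 1 kb of a listed start of a protein-coding gene, 158 of them before it. Between 1 and 10 kb lay 19.5%, between 10 and 50 kb 31.6%, between 50 and 100 kb 15.0%, and beyond 100 kb 21.7%. The median distance was 28.6 kb, and 53.5% of all gained regions had their summit inside a protein-coding gene. A start was listed for 15843 of 20037 protein-coding genes, so a region at an unlisted start was counted as farther away. The LHX1 region lay 0.534 kb from that gene, but its nearest listed start was that of AATF, 12.7 kb away. The share within 1 kb was 10.06% (18 of 179) for regions in all 4 lists. For the pan-HNF4α regions without a P1-antibody peak it was 17.1% (454 of 2660, interval 15.7 to 18.6). These intervals cover counting error alone, and regions are not replicates. The pan-HNF4α regions without a P1-antibody peak also ranked lower with the pan-HNF4α antibody than the gained regions. Over all regions of both sgNC pan-HNF4α lists the share within 1 kb was 14.5%. The share was 13.4% in the strongest of 4 equal groups by P1-antibody rank and 12.9% in the weakest.

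**Figure D3:**
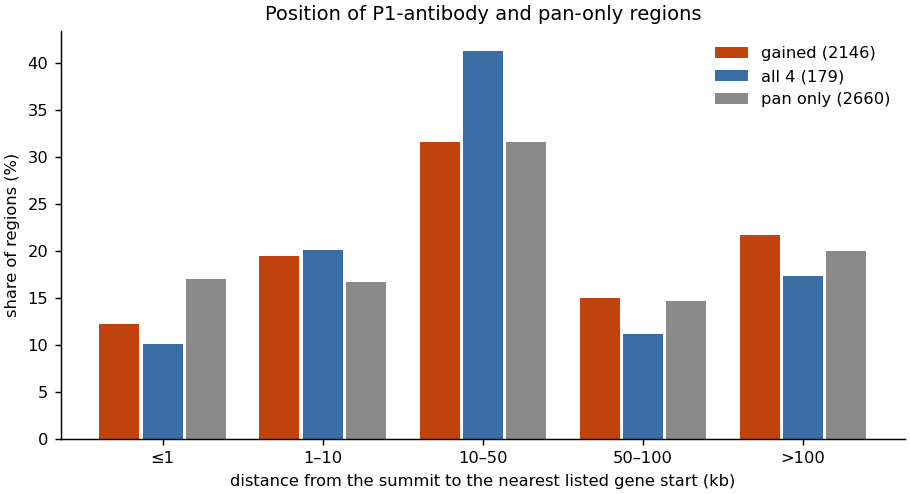
Bars give the share of regions (%) by distance in kb from the summit to the nearest listed start of a protein-coding gene, for gained regions, regions in all 4 P1-antibody lists and pan-HNF4α regions without a P1-antibody peak, with the number of regions in brackets. Within 1 kb lay 12.2%, 10.06% and 17.1%.

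At promoters, gained regions held the HNF4 motif more often than promoters at large. The whole motif CAAAGTCCA, on either strand, was in 11 of the 200 promoter windows that overlapped a gained region (5.50%, exact 95% interval 2.78 to 9.63), and in 79 of all 22078 windows (0.358%). It was in 13 of the 1251 windows that overlapped a control pan-HNF4α region without a P1-antibody peak (1.04%, interval 0.554 to 1.77). With 1 free base (CAAAGNCCA) the shares were 6.50%, 1.47% and 2.24% in the same order, and with a pair of free bases (CAAAGNNCA) 16%, 4.62% and 6.87%. Each looser form includes the matches of the stricter one, and windows of neighbouring starts can share bases. In the gained windows, 9 whole motifs lay before the start, and all 9 were within 100 bp of the summit, at a median of 16 bp. A match describes letters and is not a measured site, and the gained regions also had higher pan-HNF4α ranks than the other pan-HNF4α regions. Regions away from promoters were not searched.

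Genes were then counted by whether a gained summit lay in the gene or within 50 kb of it, which applied to 3754 of 20037 protein-coding genes (18.7%). A region of both sgNC pan-HNF4α lists lay as near to 57.3%, and of those genes 32.6% also had a gained region. Over 15 lists of genes with known roles, 95 of 344 distinct genes had a gained region (27.6%). Counts above 18.7% were found for 11 of the lists and below it for 4, and the lists were given no test. The order depends on the measure. Of members with a control pan-HNF4α region, the gastric (30.8%) and clock (29.4%) lists lay below 32.6%, though their shares of all members lay above 18.7%.

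Among genes of the brush border, the microvillar surface of absorptive cells, 12 of 25 had a gained region (48.0%). This is 1 gene more than in the transcription factor and junction lists. Of the 19 with a control pan-HNF4α region, the 12 are 63.2%, below the 84.6% of the transcription factor list. Several belong to the adhesion complex that links the tips of microvilli: the cadherins CDHR2 and CDHR5, the scaffold USH1C and the motor MYO7B. The USH1C region (chr11:17542257-17542635), inside the gene 1.97 kb after the start, ranked at 97.2 and 86.5 in sgP2. The MYO7B region (chr2:127535475-127535925), 43 bp before the start, ranked at 94.5 and 71.6. The CDHR2 region (chr5:176544673-176545097) was at 82.8 and 71.5. The region assigned to CDHR5 (chr11:587905-588284) was at 82.3 and 71.4, and its summit lay inside PHRF1, 28.5 kb from CDHR5.

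Other brush border members with a gained region were LGALS4, which encodes galectin-4, CDH17, the liver-intestine cadherin, ANPEP, aminopeptidase N, the actin regulators EPS8, EZR and VIL1, and the mucins MUC13 and MUC17. The LGALS4 region (chr19:38819120-38819760), 6.36 kb before the start with its summit inside ECH1, was at 84.8 and 91.6. The MUC17 region (chr7:101019800-101020182), 117 bp before the start, was at 81.5 and 74.1, and its pan-HNF4α percentile was 92.1 and 96.9 in sgNC, 64.7 and 25.1 in sgP1 and 84.9 and 83.7 in sgP2. The lowest was the region counted for VIL1, the gene of the microvillar protein villin, at 41.6 and 33.7. Its summit lay inside CTDSP1, 18.0 kb from VIL1.

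Among transcription factors of intestinal and hepatic epithelium, 11 of 25 genes had a gained region (44.0%), which is 11 of the 13 with a control pan-HNF4α region. The exceptions were GATA4 and NR5A2. The region 13.7 kb from GATA5 (chr20:62489378-62490218) was at 91.1 and 84.8. Regions counted for KLF5 (78.1 and 78.6), GATA6 (57.8 and 65.4), HNF4G (46.0 and 50.8) and CDX2 (37.6 and 31.0) ranked lower. Other members with a gained region were CREB3L3, ELF3, EHF, CDX1 and GRHL2.

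Genes that mark the classical subtype of pancreatic cancer had a gained region at 10 of 25 (40%), and those of the basal-like subtype at 4 of 25 (16%). Of the genes with a control pan-HNF4α region these are 10 of 21 and 4 of 15. The CLRN3 and CTSE regions led the classical list. CTSE encodes the gastric protease cathepsin E, and its region (chr1:206048559-206049079), 24.9 kb before the start, was at 94.4 and 96.7. The basal-like members were KRT15, SLC2A1, FAM83A and TP63. The region counted for KRT15 (chr17:41530268-41531015) was at 81.9 and 75.9 and lay nearest to KRT19, and that near SLC2A1, the glucose transporter GLUT1 (chr1:42980000-42980699), was at 49.5 and 70.9. The gastric list had 4 of 20 (20.0%), which were CTSE, REG4, PSCA and PGC. The region 5.11 kb before REG4 (chr1:119816371-119816705) was at 85.8 and 82.3.

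**Figure D4:**
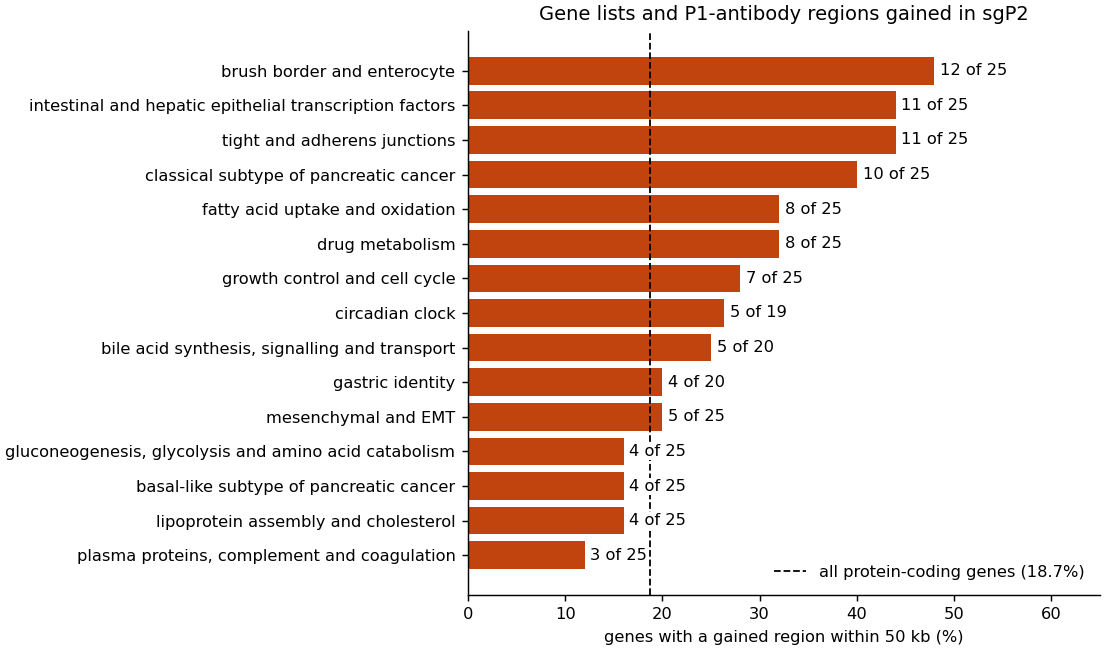
Bars give the share of the genes of each list (%) with a gained region inside the gene or within 50 kb, with the count beside the bar, and the dashed line gives the share of all protein-coding genes, 18.7%. Brush border genes reach 48.0% and plasma protein genes 12%.

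Junction genes had a gained region at 11 of 25 (44.0%), of which OCLN and MARVELD2 shared a single region. Nearly every member had a control pan-HNF4α region (23 of 25), so that the share among those was 47.8%. The region inside CDH1, the gene of E-cadherin (chr16:68792647-68793180), was at 88.2 and 90.8, and that 40.2 kb from CXADR, the gene of a tight-junction adhesion protein (chr21:17472636-17472967), at 73.2 and 85.7. The region 106 bp after the start of CLDN4, a claudin (chr7:73830886-73831419), was at 93.0 and 50.04.

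Fatty acid genes had 8 of 25 (32.0%) and drug metabolism genes 8 of 25 (32.0%), of which CYP3A4, CYP3A5 and CYP3A7 shared a single region and UGT1A1 and UGT1A6 another. The TPMT region led the drug metabolism list, and the shared UGT1A region (chr2:233751192-233751632) was at 62.5 and 76.1. Among the fatty acid genes, a region 44.4 kb from PPARA, the receptor that controls fatty acid oxidation (chr22:46105937-46106277), with its summit inside LOC124905135, was at 84.8 and 81.2. Bile acid genes had 5 of 20 (25.0%), led by the region counted for GPBAR1, a bile acid receptor of the cell surface (chr2:218264554-218265305, inside the neighbour AAMP), at 90.1 and 89.2, and that of ABCC3, an export pump (chr17:50686539-50687065), at 67.7 and 85.4. The other bile acid members were the transporters SLC51A, SLC51B and ABCC2.

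A further 3 lists had shares of 12% to 16%, which at 3 or 4 genes of 25 is near the 18.7% of all genes. They do not stand for hepatic genes in general. Drug metabolism genes (32.0%) and bile acid genes (25.0%) lay above 18.7%. Among members with a control pan-HNF4α region the shares were 23.5% for lipoprotein and cholesterol genes and 22.2% for gluconeogenesis, glycolysis and amino acid catabolism. For plasma protein genes that share was 20%, and for all genes with such a region it was 32.6%. Lipoprotein and cholesterol genes had 4 of 25 (16%), of which MOGAT2 and DGAT2 shared a single region, although 17 had a control pan-HNF4α region. Among the 13 of those without a gained region were APOA1, APOA4, APOC3 and APOE. The region inside SCARB1, the HDL receptor (chr12:124852369-124852772), was at 56.0 and 80.2, and that inside APOBEC1, the editor of apolipoprotein B messenger RNA (chr12:7666506-7666983), at 57.2 and 43.9. Genes of gluconeogenesis, glycolysis and amino acid catabolism had 4 of 25 (16%), of which ABAT and GPT, alanine aminotransferase, ranked highest. The GPT region (chr8:144500849-144501302), inside PPP1R16A, was at 95.2 and 81.7. Plasma protein genes had 3 of 25 (12%), with a region counted for C3 (chr19:6752754-6753200) at 84.1 and 20.5, which lay inside SH2D3A 32.2 kb from C3, and a single one for the neighbours F7 and F10 (chr13:113122709-113123149) at 55.5 and 36.6.

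Of the lists chosen as a contrast, growth and cell cycle genes had 7 of 25 (28.0%), clock genes 5 of 19 (26.3%) and mesenchymal genes 5 of 25 (20.0%). The region counted for AURKA, a mitotic kinase (chr20:56392333-56392723), lay inside the neighbour CSTF1 and was at 95 and 88.7. A region 30.7 kb before MKI67, the proliferation marker Ki-67 (chr10:128156947-128157406), was at 85.0 and 86.1. Among clock genes the region near BHLHE41, a repressor (chr12:26114408-26115021), was at 87.4 and 85.5 and that inside NPAS2, a partner of BMAL1 (chr2:100843068-100843544), at 82.8 and 89.3. The mesenchymal list had SNAI1 (chr20:50034008-50034337, 45.3 kb away) at 77.0 and 57.9 and TGFBI (chr5:136094401-136094919, 30.9 kb away) at 53.1 and 80.2. Across all the lists a gene within 50 kb of a site is a neighbour and was not shown to respond to it.

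The gained AsPC1 regions were then looked up in the lines with a doxycycline-induced isoform. In Panc10.05, 82.3% of them had a pan-HNF4α peak in each P1-α2 list and 77.0% and 76.2% in the P2-α8 lists. In BxPC3 the shares were 83.6% and 79.0% for P1-α2 and 60.8% and 59.8% for P2-α8. Both P1-α2 values were above both P2-α8 values in each line. A total of 1010 gained regions (44.7%) were in all 8 induced lists and 176 (7.79%) in none. In BxPC3, 243 regions were in both P1-α2 lists and neither P2-α8 list, and 1 was the reverse. In Panc10.05 these numbers were 82 and 10. Over both lines, 16 regions were in all 4 P1-α2 lists and in no P2-α8 list, and 0 were the reverse.

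The difference between P1-α2 and P2-α8 was 5.67 percentage points in Panc10.05 (82.3% ± 0 against 76.6% ± 0.563, SD, n = 2) and 21.0 in BxPC3 (81.3% ± 3.22 against 60.3% ± 0.720). Each was above the pooled SD of the replicates, 0.398 and 2.34 (two-sided exact permutation p = 0.33, the smallest possible, and 0.5 adjusted over 6 tests). Isoform and doxycycline dose differ together in Panc10.05 and cannot be told apart. In BxPC3 the isoforms differed in list length, with 41808 and 33737 peaks for P1-α2 and 12681 and 14666 for P2-α8. At equal length within each line the difference was 12.7 in Panc10.05, without overlap. In BxPC3 it turned to -5.75, with overlapping groups (exact permutation p = 0.667). The BxPC3 shares were then 56.1% and 47.0% for P1-α2 and 60.8% and 53.8% for P2-α8.

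In the full lists the same order of the mean shares of the isoforms was seen at regions that the P1-specific antibody did not detect. Of the 2815 AsPC1 pan-HNF4α regions without a P1-antibody peak, 57.4% and 62.1% had a peak in the Panc10.05 P1-α2 lists and 56.3% and 53.1% in those of P2-α8. In BxPC3 the shares were 61.5% and 50.5% for P1-α2 and 29.1% and 26.6% for P2-α8. The excess of gained over such regions was 22.5 percentage points for P1-α2 and 21.9 for P2-α8 in Panc10.05, a difference of 0.586 (exact permutation p = 1). In BxPC3 it was 25.3 and 32.5, a difference of -7.15 (exact permutation p = 0.33). With 2 libraries a group, these values do not show whether the excess depends on the isoform.

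The excess also moved with the rank of the regions and the length of the lists. With gained and other regions both held to a mean sgNC pan-HNF4α percentile of at least 80 (1757 and 356 regions), it was 15.7 percentage points ± 0.757 (SD, n = 2) for P1-α2 and 19.8 ± 0.151 for P2-α8 in Panc10.05. In BxPC3 it was then 13.1 ± 4.05 and 24.8 ± 0.188. Both P2-α8 values were above both P1-α2 values in each line (exact permutation p = 0.33, the smallest possible). With the full sets of regions and the lists of each line at equal length, the excess was 25.9 and 27.5 in Panc10.05 (exact permutation p = 0.667) and 32.4 and 32.0 in BxPC3 (exact permutation p = 1). The gained regions had the higher share in all 8 induced libraries under each of these comparisons, which were added after the data were seen.

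**Figure D5:**
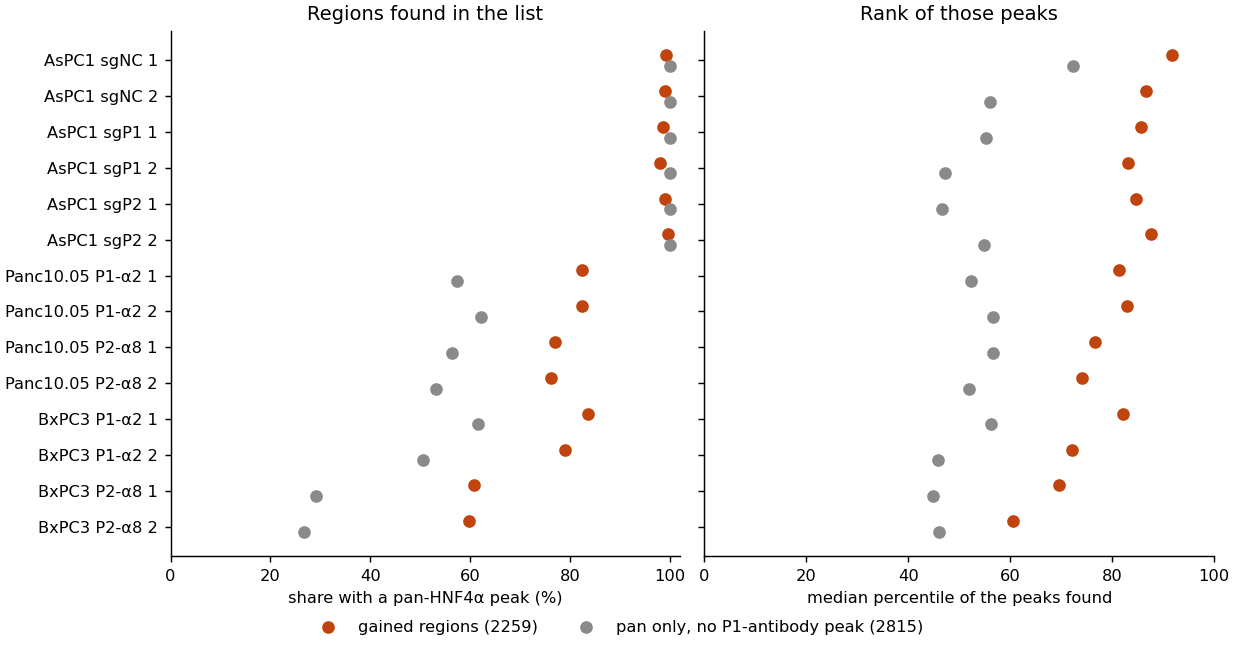
For each pan-HNF4α library (rows, with the replicate number), points give the share of regions with a peak (left, %) and the median percentile of those peaks (right) for gained regions and for regions in all 6 AsPC1 pan-HNF4α lists without a P1-antibody peak. Gained regions lie to the right in each of the 8 induced libraries in both panels.

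Single gained sites differed widely between the induced lines. The PDE4D region ranked at 93.2 or higher in all 8 induced lists. The CD82 region was at percentiles 69.3 and 55.3 of the Panc10.05 P1-α2 lists and in neither Panc10.05 P2-α8 list, and it was in all 4 BxPC3 lists. The CTSE region was likewise in both Panc10.05 P1-α2 lists, at 53.7 and 18.2, and in neither P2-α8 list of either line. The LHX1 region was in the 4 Panc10.05 lists, at 59.9 to 75.3, and in no BxPC3 list. The regions named for AHDC1, KLF5, GATA6, CDX2 and CREB3L3 were in no induced list. The same held for the higher-ranked of the 2 gained regions counted for ERBB2 and for EGFR. The lists of these lines start at a −log10 q just above 8 and those of AsPC1 just above 2, so a weaker peak could be listed in AsPC1 and not there.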

How the data were processed

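Each of the 18 deposited files is a narrowPeak list of 1 immunoprecipitated library, so peaks were called per library. Crosslinking used disuccinimidyl glutarate, then formaldehyde, per the labels' protocols. The submitters' processing notes name Bowtie2 2.2.9, MACS2 2.2.7 and the builds hg38 and mm10, without a role. In the lists deposited by the authors, column 7 is a linear fold (ratio), columns 8 and 9 hold −log10 p and q, and the score repeats the −log10 q times 10. No read counts come with them, so depth is unknown.

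Peaks were merged and compared with Python 3.11.15, pandas 2.3.3 and NumPy 2.4.6, and permutation tests enumerated all 6 labellings (SciPy 1.17.1). A region takes its strongest overlapping peak, ranked as a percentile of fold within its list. A q-value filter of at least 5 or 20 on the −log10 scale was tried on the lists as deposited by the authors. The overlap code was tested on simulated lists, where 500 of 500 gained regions were recovered, and against bedtools 2.31.1, with 0 differing calls. Genes, gene starts and promoter sequences came from RefSeq, GRCh38.p14 (20037 protein-coding genes, 15843 with a listed start). Summits of the P1-antibody lists lay within 1 kb of a start in 9.35% to 13.0% of cases, and in 1.22% to 3.06% after a shift of 100 kb. Starts on chromosome 8 were not used here.

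Named regions are the 12 gained ones of highest mean rank, the 6 highest near a start, the 2 highest genes of each list, the 5 strongest in all 4 lists, those of sgNC alone and those without pan-HNF4α peaks. Other list members and the sites compared between induced lines were picked for their place in a list or after their values were seen. The regions, lists and rules were chosen with earlier results of these data known. Of the 20 clock genes, 19 matched. Input libraries were not used. A few regions picked by this scheme are left out of the text.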

Additional observations from a re-analysis of the deposited data

How the results depend on the processing

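Exact permutation tests of 2 against 2 libraries cannot fall below p = 0.33, so their p-values say nothing of stability. At a −log10 q of at least 20, regions in all 4 lists numbered 48, those of sgNC alone 0 and list genes with a gained region 61; gained regions numbered 832. At equal length by fold, gained regions numbered 31, regions in all 4 lists 87 and those of sgNC alone 18; 22.2% of the gained lay near a start, 8 list genes had one, and their median percentile was 50.7 (58.2 in the full lists). The pan-HNF4α shares then differed by 0 for sgP2 and for sgP1, the median pan-HNF4α percentile by 0.696, and the Panc10.05 shares by 0. By −log10 p the counts were 41, 98 and 23. With reciprocal overlap of 50%, regions in all 4 lists numbered 99 and those of sgNC alone 40. When the lists compared were of equal length, the difference in median pan-HNF4α percentile turned to 1.01. The BxPC3 difference then turned to -5.75, with overlapping groups, and the pan-HNF4α share differed by 0.465 for sgP2 and -0.465 for sgP1. Relative to regions without a P1-antibody peak the BxPC3 difference was -7.15, and 0.373 at equal length. At an sgNC percentile of at least 80 it was -11.7 and that of Panc10.05 -4.05, and at equal length the Panc10.05 value was -1.59. Within 5 kb of a start lay 23.4%, and the motif with a pair of free bases was in 16% of windows. The cause of these changes was not tested.

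Leaving out each library gave 2299 to 4535 gained regions, 193 to 601 in all lists, 6 to 57 of sgNC alone, 97 to 137 list genes, 11.1% to 13.2% near a start and a median percentile of 44.0 to 62.1. Without a P1-antibody library a class asked for fewer lists. Its counts then tend to rise by construction and do not measure stability. The log2 difference in peak number ran from 2.69 to 4.12. The pan-HNF4α share differed by -1.03 to 0.421 for sgP2 and -4.24 to -0.553 for sgP1, and the median percentile by -5.55 to -0.50. It changed sign, for the share in sgP2, without either sgP2 P1-antibody library (-0.737 and -1.03), sgP2 pan-HNF4α replicate 2 (-0.155) or sgNC pan-HNF4α replicate 2 (-0.0221). The induced differences ran from 4.76 to 6.06 in Panc10.05 and 18.7 to 23.3 in BxPC3.

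The titles number the replicates without saying that a number stands for a shared batch. Same-numbered P1-antibody lists had a correlation of presence of -0.0674 over 6274 regions, and were treated as unpaired. Under a replicate block the log2 difference in peak number stayed 3.41 (exact permutation p = 0.5, which is the lowest a block of 2 pairs can give). Neither form of the test can give a small p with these libraries, so the block had no call to change.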
